A study of Mus musculus with 15 samples.

Results

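Mitosis and spindle genes encode the proteins that take a cell into division, build the spindle, hold back the separation of chromosomes until every one is attached, and divide the cell. A list of 44 such genes was followed through blood stem and progenitor cells that lacked Tet2, carried the activated Nras(G12D) allele, or had both. The genes are a list of names read from the authors' expression table; no measured value enters the list. It was drawn up with earlier results of these data known. All 44 were found among its 44827 genes, and all 44 passed the filter that left 13927 genes for testing (at least 1 CPM, the count scaled to library size, in at least 3 of 15 libraries). They fall into mitotic entry (6 genes), mitotic kinases (3), the spindle checkpoint (5), anaphase onset (4), the chromosomal passenger complex (4), centromere and kinetochore (7), kinesins (5), spindle assembly (4), midzone and cytokinesis (4) and the mitotic chromosome (2).

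The cells were LSK cells (negative for lineage markers, positive for Sca1 and cKit), sorted from marrow of the femurs, tibiae and iliac crests of C57BL/6 mice, and their RNA was sequenced as stranded mRNA libraries. There were 5 groups of 3 libraries: leukemic Tet2-/- Nras(G12D), called the leukemic double mutant below; Tet2-/- Nras(G12D) without leukemia, the double mutant; Tet2-/-; Nras(G12D); and wild type (WT). The design text describes conditional alleles acting in blood-forming tissue and gives 6 months as the age of the animals examined for methylation; the Cre driver and the age at RNA collection were not found in the labels. Only the leukemic libraries are described with the letters BMT, whose meaning was not established, so whatever they mark cannot be told apart from leukemia. Separate animals are nowhere stated for the 3 libraries within a group, and p-values therefore reflect library-to-library spread that may be technical. Library totals ran from 22733189 to 43562909 counts. The Sca1 gene Ly6a and Kit were detected in every library. The count of Tet2 was 32.3 to 76.5 CPM in the leukemic double mutant, 47.9 to 62.6 in the double mutant, 35.9 to 59.8 in Tet2-/-, 45.2 to 75.1 in Nras(G12D) and 50.7 to 65.2 in WT. These Tet2 counts cover the whole gene and the deleted part is not stated, so they do not check the labels, and Nras(G12D) is a base change that a count does not show.

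Cells make most of these transcripts late in the cell cycle, from S phase to mitosis, and destroy many of the proteins as they leave mitosis. The repressor complex built on MuvB, the activator B-MYB (Mybl2) and FOXM1 are known to act on many of their promoters, through an element called CHR and through CCAAT boxes that bind NF-Y. Most LSK cells at the top of the blood hierarchy divide seldom, while the progenitors in the same sort divide often. In a sorted population, fewer dividing cells and less RNA per dividing cell cannot be told apart.

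The promoters of Mki67, Cdk1, Plk1 and Bub1b are shown as examples. These 4 were the first with a CHR match in a fixed order of genes described in every library below. Each also holds a CCAAT match, and other genes described in this way, such as Cenpa, hold both elements too. Each sequence is the 300 bases from 250 before to 50 after the RefSeq start (build GRCm38.p6), 5′ to 3′ on the gene's strand. The capitals mark matches on either strand. One kind is the CHR, searched as TTTGAA and, in a second pass over the same window, in its variant form TTCGAA. The other kind is the CCAAT box, which appears in capitals as written here or, on the opposite strand, as ATTGG. They lie at chr7:135716330-135716629 (minus strand) for Mki67, chr10:69352863-69353162 (minus strand) for Cdk1, chr7:122159185-122159484 (plus strand) for Plk1 and chr2:118597961-118598260 (plus strand) for Bub1b.
Mki67: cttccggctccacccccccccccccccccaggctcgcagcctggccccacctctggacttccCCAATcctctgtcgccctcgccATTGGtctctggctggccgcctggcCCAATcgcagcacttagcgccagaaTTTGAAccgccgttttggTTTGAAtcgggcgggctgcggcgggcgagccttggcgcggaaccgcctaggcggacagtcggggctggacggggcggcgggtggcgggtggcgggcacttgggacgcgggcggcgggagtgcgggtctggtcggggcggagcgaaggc
Cdk1: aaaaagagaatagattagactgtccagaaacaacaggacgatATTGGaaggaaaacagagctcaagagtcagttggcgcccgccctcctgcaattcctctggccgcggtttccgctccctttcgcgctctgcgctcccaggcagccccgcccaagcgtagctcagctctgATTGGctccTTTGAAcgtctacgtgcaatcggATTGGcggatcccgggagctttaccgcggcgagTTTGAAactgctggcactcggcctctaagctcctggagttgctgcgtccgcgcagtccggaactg
Plk1: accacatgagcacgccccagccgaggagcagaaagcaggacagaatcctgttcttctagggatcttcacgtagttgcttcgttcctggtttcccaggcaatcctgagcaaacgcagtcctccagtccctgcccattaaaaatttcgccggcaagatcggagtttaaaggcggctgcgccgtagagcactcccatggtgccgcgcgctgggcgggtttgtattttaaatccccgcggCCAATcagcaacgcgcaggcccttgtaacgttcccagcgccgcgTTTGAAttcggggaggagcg
Bub1b: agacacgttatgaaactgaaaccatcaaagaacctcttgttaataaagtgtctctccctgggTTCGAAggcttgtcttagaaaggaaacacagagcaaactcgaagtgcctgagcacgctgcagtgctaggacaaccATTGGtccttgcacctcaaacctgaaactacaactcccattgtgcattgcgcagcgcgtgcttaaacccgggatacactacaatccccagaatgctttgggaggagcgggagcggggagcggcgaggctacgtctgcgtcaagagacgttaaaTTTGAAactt

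RefSeq windows were matched by symbol for 37 of the 44 genes, giving 40 windows because 3 genes had more than 1. A CHR match stood in 32 of these 40 windows (80%), against 19.2% of all 32851 promoter windows of that length. A CCAAT match stood in 32 windows as well (80%, against 37.4% of all windows), both together in 72.5% (against 7.52%), and at least 2 CCAAT matches in 57.5% (against 11.7%). The windows of Mki67 and Cdk1 each held 2 CHR and 3 CCAAT matches, that of Plk1 held 1 of each, and that of Bub1b held 2 CHR and 1 CCAAT. The windows of Ccnb1 and Nek2, 2 genes that rose in leukemia below, held 2 CCAAT and no CHR match each. A match is a description of the letters in the window, and a window without one says nothing of what binds there.

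The leukemic double mutant had the highest mean level of 36 of the 44 genes, and Tet2-/- the lowest of 22. Each library's median deviation from the genes' own 15-library means was -0.07, 0.92 and 0.55 (log2) in leukemic libraries 1 to 3, 0.06, 0.08 and -0.42 in the double mutant, -0.60, -0.15 and 0.29 in Tet2-/-, -0.18, -0.09 and 0.17 in Nras(G12D), and -0.11, 0.07 and 0.08 in WT. Leukemic libraries 2 and 3 thus stood above the other 13, and leukemic library 1 stood among them. The number of the 44 genes above their own mean was 43 in leukemic library 2 and 39 in library 3, but 17 in library 1. The summed level of all 44 genes was 6901 to 12900.4 CPM in the leukemic double mutant, 5098 to 7285 in the double mutant, 4170.3 to 6976 in Tet2-/-, 6239.9 to 7427 in Nras(G12D) and 6016 to 7173 in WT.

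**Figure D1:**
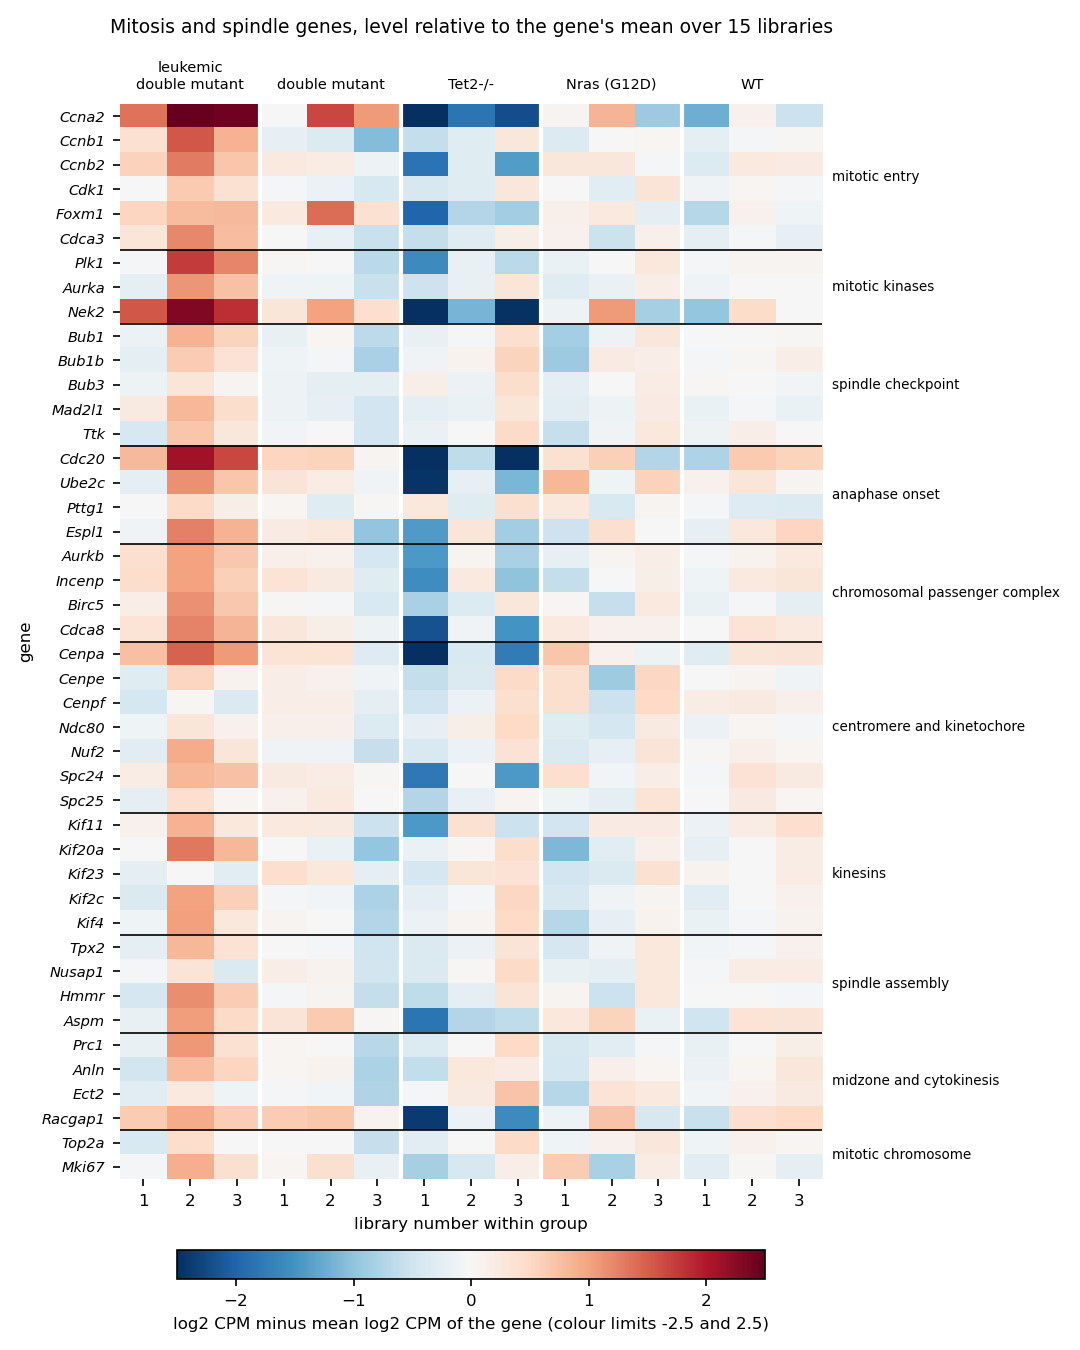
Deviation of each mitosis and spindle gene (rows, by role) from its mean over the 15 libraries (columns, by group), in log2 units. Leukemic libraries 2 and 3 are above the mean for 43 and 39 of the 44 genes, and part of the list is low in Tet2-/- libraries 1 and 3.

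Against the double mutant, 5 of the 44 genes rose in the leukemic double mutant and 0 fell (limma, adjusted p below 0.05), where 9.04% of all tested genes rose and 15.2% fell. The 5 were Ccnb1, Cdca3, Mad2l1, Plk1 and Kif20a. Of the 44 log2 differences 41 lay above 0, and their median was 0.58, beside -0.10 for all tested genes; under 4 other scalings of the libraries the genes' median ran from 0.34 to 0.75. With 1 library left out it ran from 0.31 (without leukemic library 2) to 0.84 (without leukemic library 1). Against WT, 4 genes rose (Ccna2, Nek2, Cdca3 and Ccnb1) and 0 fell, where 10.8% of tested genes rose and 13.9% fell, and the median difference was 0.44, beside 0.00 for all tested genes. That median was 0.17 to 0.47 under the same scalings, 0.20 without leukemic library 2 and 0.71 without leukemic library 1. The share of called members was close to the share of all genes that rose in both comparisons, 11.4% against 9.04% and 9.09% against 10.8%. Without leukemic library 1 the counts were 16 genes against the double mutant and 12 against WT, where 2101 and 2352 of all 13927 tested genes rose. Without library 2 they were 1 and 1 (409 and 565 of all genes rose). Without library 3 they were 1 and 2 (596 and 639 of all genes). Against the double mutant the count was 3 without double mutant library 1 and 1 without library 2 or 3, and against WT it was 1 without WT library 1 and 2 without WT library 2 or 3. Of all 13927 tested genes 781, 643 and 539 rose without double mutant libraries 1, 2 and 3. Without WT libraries 1, 2 and 3 the numbers were 446, 1102 and 634. Ccnb1 against the double mutant and Ccna2 against WT were the calls that held with each of the 6 compared libraries left out in turn.

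Against Tet2-/-, 11 of the 44 genes rose in the double mutant and 0 fell, where 20.1% of tested genes rose and 8.57% fell. The risers were Ccna2, Nek2, Foxm1, Cdc20, Racgap1, Cenpa, Ccnb2, Aspm, Cdca8, Spc24 and Ube2c. The median over the 44 genes was 0.03, beside 0.00 for all tested genes. It was -0.44 with each library centred on its median gene, which put the median of all tested genes at -0.46. That centring gave 8 rises and 5 falls among the 44 (Bub1b, Bub3, Ect2, Mad2l1 and Top2a fell). Of all 13927 tested genes 2020 rose and 4039 fell under it. The count was 3 without Tet2-/- library 1, 5 without Tet2-/- library 3, 4 without double mutant library 2, and 14 without Tet2-/- library 2. Of all tested genes 1193, 1504, 1412 and 3416 rose in these fits. Ccna2, Nek2 and Foxm1 held with each of the 6 compared libraries left out in turn.

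No member passed the test in the other 4 contrasts (limma). In Tet2-/- against WT the smallest adjusted p was 0.108, and 0.108% of tested genes rose and 0.122% fell. An unadjusted p below 0.05 was found for 13 of the 44 genes, beside 3304 of all 13927 tested genes. The median over the 44 genes was -0.13 there, or 0.11 with each library centred on its median gene, which put the median of all tested genes at 0.23. Without Tet2-/- library 2 the count of called members was 12, all lower, in a fit that called 408 of all 13927 tested genes higher and 1827 lower. For the double mutant against WT, 0.488% of all tested genes were called higher and 0.194% lower. There 2 members and 2119 of all tested genes had an unadjusted p below 0.05. In Nras(G12D) against WT 0 members had one, the smallest adjusted p was 0.984, and none of the tested genes was called (577 had an unadjusted p below 0.05). In the double mutant against Nras(G12D) 0 members and 1032 of all tested genes had an unadjusted p below 0.05. The smallest adjusted p of a member was 0.70 there, where 0.0503% of tested genes rose and 0.0287% fell. The interaction of both mutations (the double mutant's change from Tet2-/- less the change of Nras(G12D) from WT) called 0 members and 0 genes at all, though 11 members and 2924 genes had an unadjusted p below 0.05. It called 10 members, all higher, without Tet2-/- library 2, where 1501 of all tested genes were called higher and 191 lower. Without double mutant library 1 it called 1 member, higher, where 478 were called higher and 27 lower.

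**Figure D2:**
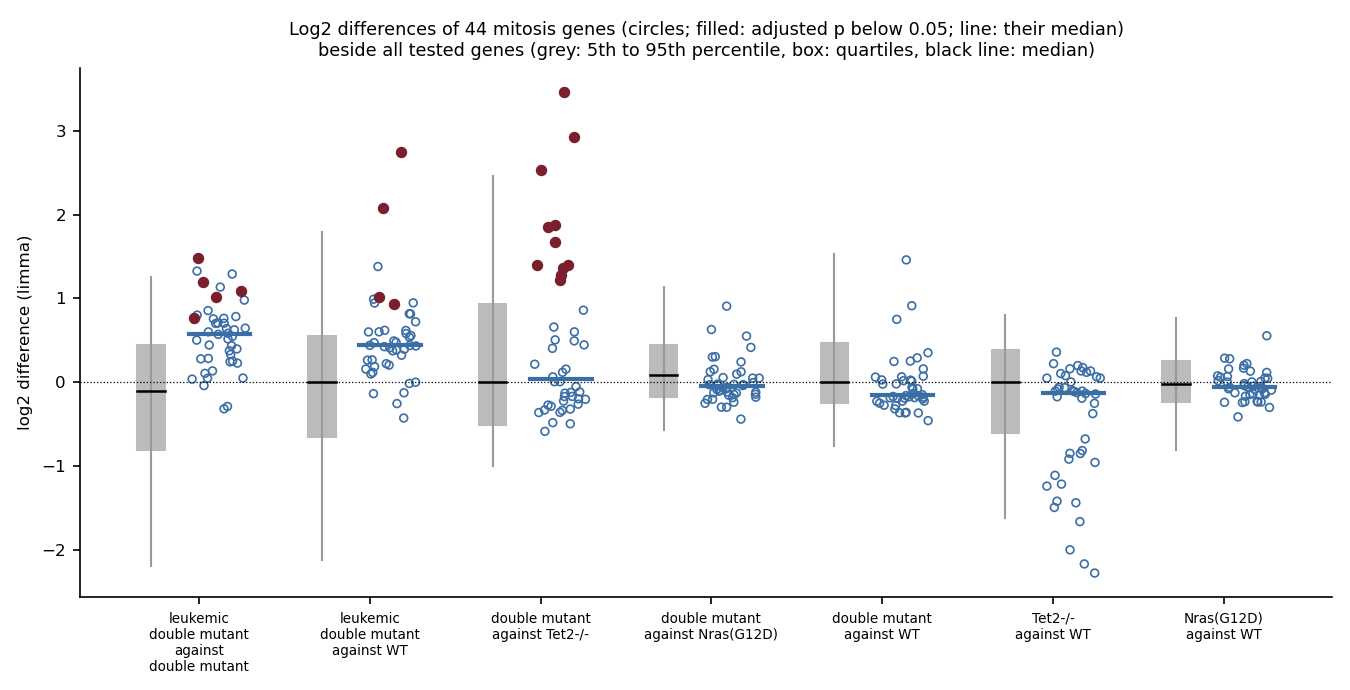
Log2 differences of the 44 genes (circles, filled where the adjusted p was below 0.05, blue line at their median) in 7 comparisons, beside all tested genes (grey line from the 5th to the 95th percentile, box at the quartiles, black line at the median). In the leukemic comparisons 41 and 38 of the 44 circles lie above 0 (medians 0.58 and 0.44), and the circles spread widely in the double mutant against Tet2-/- and in Tet2-/- against WT.

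Mitotic entry is driven by CDK1 bound to a cyclin. Ccna2, the cyclin A2 gene that serves S phase and early mitosis, had 202, 548 and 423 CPM in the leukemic double mutant, 77.7, 249.7 and 165 in the double mutant, 6.33, 22.1 and 17.0 in Tet2-/-, 82.3, 141 and 41.8 in Nras(G12D) and 33.7, 84.2 and 54.4 in WT. The 3 leukemic values lay above those of Tet2-/-, Nras(G12D) and WT without overlap, and the 3 Tet2-/- values lay below those of every other group. Ccna2 rose by 2.75 ± 0.58 on the log2 scale in the leukemic double mutant against WT (estimate ± standard error, adjusted p = 0.00661) and by 3.46 ± 0.58 in the double mutant against Tet2-/- (adjusted p = 0.00472). Both calls held in all 13 alternative fits and with any of the 6 libraries left out. The other contrasts gave 1.46 ± 0.58 for the double mutant against WT (adjusted p = 0.24), -2.0 ± 0.58 for Tet2-/- against WT (adjusted p = 0.11), 0.91 ± 0.58 for the double mutant against Nras(G12D) (adjusted p = 0.721) and 0.55 ± 0.58 for Nras(G12D) against WT (adjusted p = 0.984). Its interaction estimate was the largest of the 44, 2.91 ± 0.82 (adjusted p = 0.143).

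Ccnb1, the main cyclin of mitotic entry, had 223, 501 and 309.9 CPM in the leukemic double mutant, 147, 135 and 80.7 in the double mutant, 112, 138 and 208 in Tet2-/-, 135, 169.9 and 175 in Nras(G12D) and 145, 166 and 174 in WT. Its leukemic values lay above all 12 others. Ccnb1 rose by 1.48 ± 0.31 in the leukemic double mutant against the double mutant (adjusted p = 0.00661) and by 1.02 ± 0.31 against WT (adjusted p = 0.0306), and the difference of the double mutant from WT was -0.46 ± 0.31 (adjusted p = 0.557). The first call held with any of the 6 libraries left out and was lost in 1 of 13 alternatives. The second was lost in 4 of 13 alternatives and in 5 of the 6 fits with a library left out. The second B cyclin, Ccnb2, was called in another comparison, and its leukemic values too lay above all 12 others. It had 248, 409 and 270.0 CPM in the leukemic double mutant, 198, 189.7 and 152 in the double mutant, 46.6, 136 and 63.4 in Tet2-/-, 204, 202 and 161 in Nras(G12D) and 132, 198 and 193 in WT, rose by 1.28 ± 0.33 in the double mutant against Tet2-/- (adjusted p = 0.014), and differed by 0.75 ± 0.33 in the leukemic double mutant against the double mutant (adjusted p = 0.109). The Ccnb2 call held in all 13 alternatives and was lost in 3 of 6 fits with a library left out. Tet2-/- libraries 1 and 3 were the lowest of the 15 for Ccnb2, whereas for Ccnb1 Tet2-/- library 3 was the highest outside leukemia. Whether Ccnb1 and Ccnb2 differ was not tested.

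Cdk1, the kinase itself, had 195, 305 and 249 CPM in the leukemic double mutant, 188, 173 and 146 in the double mutant, 145, 156 and 235 in Tet2-/-, 192, 158 and 240.3 in Nras(G12D) and 182, 198 and 185 in WT. The leukemic values did not overlap those of the double mutant, with a difference of 0.54 ± 0.23 (adjusted p = 0.102), but overlapped those of WT (0.38 ± 0.23, adjusted p = 0.241). Foxm1, the forkhead factor that activates many genes of this list, had 52.7, 62.2 and 63.2 CPM in the leukemic double mutant, 43.0, 94.9 and 47.2 in the double mutant, 9.13, 21.8 and 19.7 in Tet2-/-, 39.5, 43.0 and 30.8 in Nras(G12D) and 22.1, 38.9 and 33.6 in WT. It rose by 1.87 ± 0.36 in the double mutant against Tet2-/- (adjusted p = 0.00476), a call held in all 13 alternatives and with any of the 6 libraries left out. Double mutant library 2 had the highest Foxm1 level of all 15 libraries, and the leukemic double mutant against the double mutant gave no call (0.03 ± 0.36, adjusted p = 0.955). Its 3 double mutant values lay above those of WT (0.91 ± 0.36, adjusted p = 0.24) and its leukemic values too (0.95 ± 0.36, adjusted p = 0.0702). Cdca3, which helps to remove the CDK1 inhibitor WEE1, had 129.7, 242 and 179 CPM in the leukemic double mutant, 105, 92.6 and 70.9 in the double mutant, 69.6, 85.0 and 115 in Tet2-/-, 113, 72.0 and 114 in Nras(G12D) and 88.9, 101 and 90.9 in WT. It rose by 1.01 ± 0.28 in the leukemic double mutant against the double mutant (adjusted p = 0.0189) and by 0.93 ± 0.28 against WT (adjusted p = 0.0262), and each leukemic value lay above all 12 others. The first call was lost in 3 of 13 alternatives and in 4 of 6 fits with a library left out. The second was lost in 2 of 13 and in 5 of 6.

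**Figure D3:**
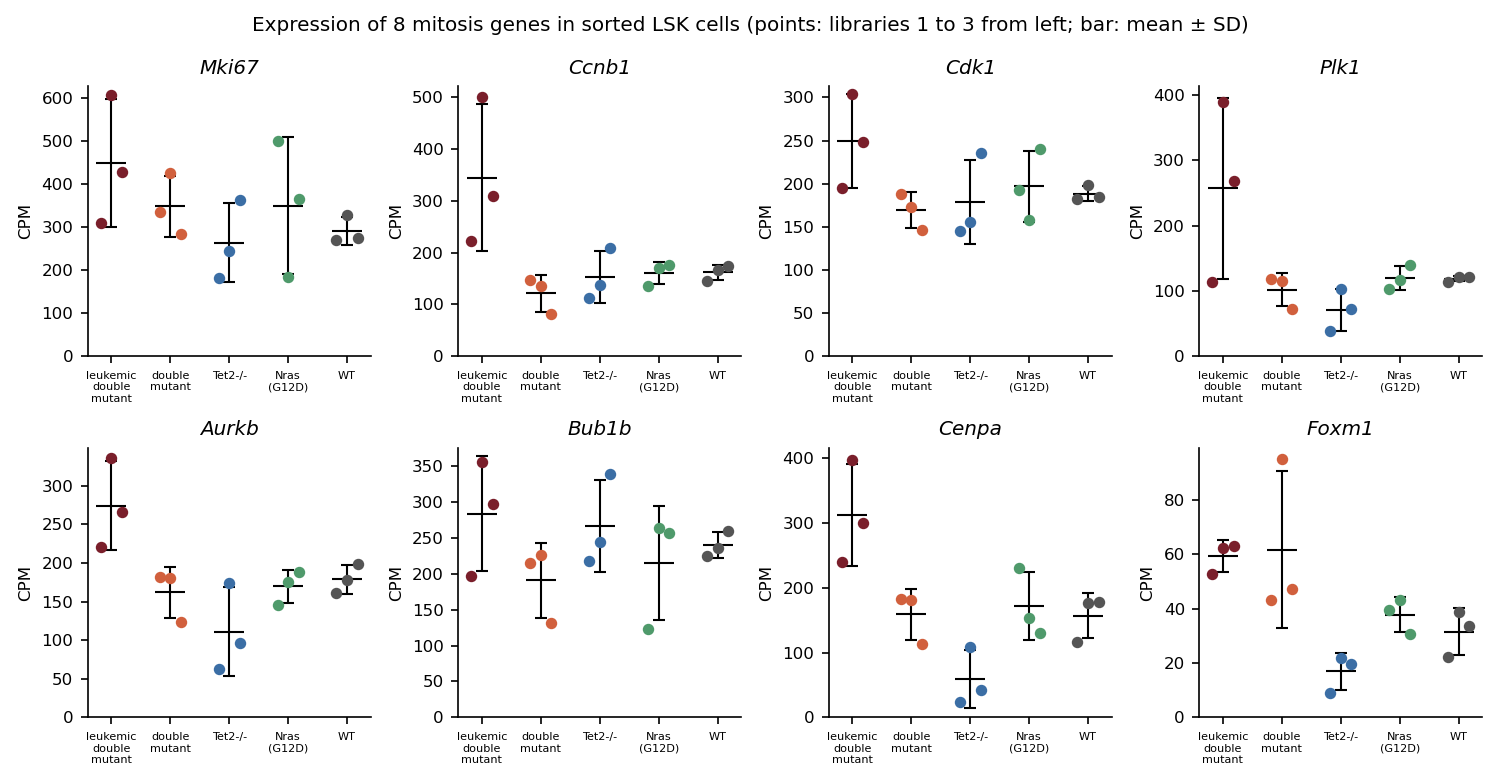
Level in CPM of 8 mitosis genes in each library (points, libraries 1 to 3 from left to right within a group), with the mean and SD of each group of 3. Leukemic library 2 is the highest point for 7 of the 8 genes, all but Foxm1, and Tet2-/- library 1 is the lowest for Mki67, Cdk1, Plk1, Aurkb, Cenpa and Foxm1.

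Of the mitotic kinases, Plk1, which matures centrosomes and acts at nearly every step of mitosis, had 113, 389.9 and 269 CPM in the leukemic double mutant, 118, 115 and 72.4 in the double mutant, 38.2, 102 and 72.4 in Tet2-/-, 103, 117 and 139 in Nras(G12D) and 114, 121 and 121 in WT. Leukemic libraries 2 and 3 stood above every other library, while library 1 lay within the double mutant's range. Plk1 rose by 1.2 ± 0.41 in the leukemic double mutant against the double mutant (adjusted p = 0.0474). This call was lost in 4 of 13 alternatives and in 5 of 6 fits with a library left out. Nek2, a kinase that separates the centrosomes, had 132, 225 and 162 CPM in the leukemic double mutant, 55.7, 91.1 and 60.4 in the double mutant, 4.29, 20.2 and 8.10 in Tet2-/-, 41.1, 94.0 and 25.4 in Nras(G12D) and 23.1, 62.3 and 44.8 in WT. Its leukemic values lay above all 12 others and its Tet2-/- values below all 12 others. Nek2 rose by 2.07 ± 0.55 in the leukemic double mutant against WT (adjusted p = 0.0165) and by 2.92 ± 0.55 in the double mutant against Tet2-/- (adjusted p = 0.00472). Both calls held in all 13 alternatives. The first was lost without leukemic library 2 or WT library 1, and the second held with any of the 6 libraries left out. Tet2-/- differed from WT by -2.17 ± 0.55 (adjusted p = 0.108), and the leukemic double mutant from the double mutant by 1.32 ± 0.55 (adjusted p = 0.0924). Aurka, the spindle pole kinase, was 89.5 to 228 CPM in the leukemic double mutant, 72.0 to 99.7 in the double mutant, 74.0 to 132 in Tet2-/-, 86.3 to 119 in Nras(G12D) and 99.2 to 108 in WT, and was called in no contrast.

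The spindle checkpoint genes, whose products delay anaphase until every chromosome is attached, had 1 call in all, Mad2l1 in leukemia. Mad2l1, which sequesters CDC20, had 198, 305 and 230.0 CPM in the leukemic double mutant, 156, 148 and 122 in the double mutant, 143, 151 and 209 in Tet2-/-, 142, 156 and 197 in Nras(G12D) and 153, 166 and 152 in WT. It rose by 0.77 ± 0.22 in the leukemic double mutant against the double mutant (adjusted p = 0.022), with a difference of 0.62 ± 0.22 against WT that was not called (adjusted p = 0.0513). The Mad2l1 call was lost in 4 of 13 alternatives and in 4 of 6 fits with a library left out. Bub1b, the BUBR1 component, had 197, 356 and 297 CPM in the leukemic double mutant, 215, 227 and 131 in the double mutant, 218, 244 and 339 in Tet2-/-, 123, 264 and 257 in Nras(G12D) and 224, 236 and 259.6 in WT. Its groups overlapped throughout, and the leukemic double mutant differed from the double mutant by 0.57 ± 0.32 (adjusted p = 0.204) and from WT by 0.20 ± 0.32 (adjusted p = 0.673). Bub1, a checkpoint kinase, differed by 0.70 ± 0.32 between the leukemic double mutant and the double mutant, Bub3, which carries both BUB proteins to kinetochores, by 0.28 ± 0.19, and Ttk, the kinase that starts the signal, by 0.37 ± 0.30, with adjusted p of 0.118, 0.296 and 0.374. The 3 double mutant values of Bub3, 256 to 279 CPM, lay below the 3 of WT, 289 to 310.2 CPM (log2 difference -0.18 ± 0.19, adjusted p = 0.727).

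At anaphase onset, Cdc20, the activator of the anaphase-promoting complex (APC/C), had 209.8, 511 and 380.2 CPM in the leukemic double mutant, 175, 176 and 125 in the double mutant, 13.98, 76.8 and 18.8 in Tet2-/-, 156, 182 and 72.5 in Nras(G12D) and 70.4, 188 and 176 in WT. Tet2-/- libraries 1 and 3 were the lowest of the 15, while Tet2-/- library 2 and WT library 1 lay near each other. Cdc20 rose by 2.53 ± 0.58 in the double mutant against Tet2-/- (adjusted p = 0.00803), a call held in all 13 alternatives and lost without Tet2-/- library 1. Tet2-/- differed from WT by -2.28 ± 0.58 (adjusted p = 0.108), the lowest estimate among the 44 genes, with overlapping values. The leukemic values lay above those of the double mutant (1.13 ± 0.58, adjusted p = 0.163) and of WT (1.38 ± 0.58, adjusted p = 0.0929), neither of them called. Ube2c, the APC/C's ubiquitin-conjugating enzyme, averaged 149.9 ± 21.2 CPM in the double mutant and 68.0 ± 46.7 CPM in Tet2-/- (mean ± SD, n = 3 each) and rose by 1.40 ± 0.46 (adjusted p = 0.0368), a call lost in 5 of 13 alternatives and in 5 of 6 fits with a library left out. Espl1, the protease separase that cleaves cohesin, averaged 177 ± 75.4 CPM in the leukemic double mutant and 97.7 ± 39.7 CPM in the double mutant, with a difference of 0.85 ± 0.47 (adjusted p = 0.192). Pttg1, its inhibitor securin, was 32.7 to 46.1 CPM in the leukemic double mutant against 26.1 to 32.0 CPM in WT, a non-overlapping difference of 0.44 ± 0.25 (adjusted p = 0.213).

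The chromosomal passenger complex corrects faulty attachments and directs cytokinesis through the kinase Aurora B. Aurkb, its kinase, had 221, 336 and 266 CPM in the leukemic double mutant, 182, 180.3 and 124 in the double mutant, 62.1, 174 and 95.8 in Tet2-/-, 146, 176 and 188 in Nras(G12D) and 161, 178 and 199 in WT. The leukemic values lay above all 12 others, by 0.76 ± 0.31 against the double mutant (adjusted p = 0.0857) and 0.60 ± 0.31 against WT (adjusted p = 0.166), neither of them called. Cdca8, the borealin subunit, averaged 158 ± 21.8 CPM in the double mutant and 73.7 ± 55.7 CPM in Tet2-/-. It rose by 1.36 ± 0.39 (adjusted p = 0.0212), a call lost in 2 of 13 alternatives and in 5 of 6 fits with a library left out. Its values, and those of the scaffold Incenp and of the survivin gene Birc5, were without overlap higher in the leukemic double mutant than in the double mutant, by 0.70, 0.60 and 0.80, and than in WT, by 0.62, 0.54 and 0.82 (adjusted p from 0.0653 to 0.3).

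At the centromere, Cenpa, the histone H3 variant that marks it, had 240.2, 397 and 299 CPM in the leukemic double mutant, 182, 181 and 113 in the double mutant, 24.5, 109 and 42.6 in Tet2-/-, 231, 153 and 131 in Nras(G12D) and 116, 176 and 178 in WT. The 3 Tet2-/- values lay below all 12 others and the 3 leukemic ones above all 12 others. Cenpa rose by 1.68 ± 0.43 in the double mutant against Tet2-/- (adjusted p = 0.0134), while Tet2-/- against WT gave -1.67 ± 0.43 (adjusted p = 0.108) and the leukemic double mutant 0.98 ± 0.43 against the double mutant (adjusted p = 0.11). The Cenpa call held in all 13 alternatives and was lost in 3 of 6 fits with a library left out. The NDC80 complex, which grips microtubules, has 4 subunits. Only Spc24 among them passed the test in any contrast: it averaged 80.8 ± 5.69 CPM in the double mutant and 40.4 ± 28.4 CPM in Tet2-/- and rose by 1.22 ± 0.36 (adjusted p = 0.0234), where Ndc80, Nuf2 and Spc25 gave -0.17 ± 0.24, -0.21 ± 0.30 and 0.40 ± 0.25. The Spc24 call was lost in 2 of 13 alternatives and in 5 of 6 fits with a library left out. Whether Spc24 differs from its partners was not tested. Nuf2 was 63.2 to 88.6 CPM in the double mutant and 96.3 to 103 CPM in WT, without overlap (-0.32 ± 0.30, adjusted p = 0.685). Cenpf, a large kinetochore protein, was 100.1 to 139 CPM in the leukemic double mutant and 147 to 157 CPM in WT, a difference of -0.43 ± 0.29 (adjusted p = 0.282). Cenpe, the kinetochore kinesin, gave 0.11 ± 0.36 in the same contrast (adjusted p = 0.839).

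Of the kinesins, the motor proteins that build and order the spindle, Kif20a, a motor of the central spindle, had 109, 277 and 195 CPM in the leukemic double mutant, 109.9, 99.0 and 56.3 in the double mutant, 98.9, 113 and 149.9 in Tet2-/-, 50.4, 90.9 and 121 in Nras(G12D) and 96.1, 109 and 126 in WT. It rose by 1.09 ± 0.38 in the leukemic double mutant against the double mutant (adjusted p = 0.0485), and leukemic library 1 lay within the double mutant's range. This call was lost in 5 of 13 alternatives and in 5 of 6 fits with a library left out. In Nras(G12D) against WT Kif20a had the smallest p of the list, with a difference of -0.42 ± 0.38 (adjusted p = 0.984). Kif23, the motor of the centralspindlin complex, had 125, 146 and 123 CPM in the leukemic double mutant, 198, 177 and 125 in the double mutant, 111, 183 and 189.7 in Tet2-/-, 106, 115 and 193 in Nras(G12D) and 158, 146 and 167 in WT. Its leukemic values lay below those of WT (-0.26 ± 0.27, adjusted p = 0.508), and Nras(G12D) gave -0.24 ± 0.27 against WT (adjusted p = 0.984). Kif11, which pushes the poles apart, Kif2c, which takes microtubules apart, and Kif4, a chromosome-bound motor, gave 0.44, 0.70 and 0.62 in the leukemic double mutant against the double mutant, with adjusted p of 0.419, 0.133 and 0.16.

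Among the spindle assembly genes, Aspm, which focuses the spindle poles, had 73.4, 172 and 117 CPM in the leukemic double mutant, 105, 132 and 85.7 in the double mutant, 23.5, 50.4 and 54.1 in Tet2-/-, 101, 122 and 74.8 in Nras(G12D) and 59.3, 106 and 104 in WT. Its Tet2-/- values lay below all 12 others. Aspm rose by 1.40 ± 0.38 in the double mutant against Tet2-/- (adjusted p = 0.016), a call held in all 13 alternatives and lost without double mutant library 2 or Tet2-/- library 1. Tpx2, which activates Aurora A, Hmmr, a spindle pole protein, and Nusap1, which bundles spindle microtubules, gave 0.51, 0.64 and 0.05 in the leukemic double mutant against the double mutant (adjusted p = 0.182, 0.21 and 0.909).

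For the midzone and cytokinesis, Racgap1, the GTPase-activating partner in centralspindlin, had 221, 272 and 218 CPM in the leukemic double mutant, 223, 229.5 and 153 in the double mutant, 27.4, 129 and 47.5 in Tet2-/-, 131, 234 and 108 in Nras(G12D) and 96.6, 192 and 203 in WT. Tet2-/- libraries 1 and 3 were the lowest of the 15, and WT library 1 stood below the other 2 WT libraries. Racgap1 rose by 1.85 ± 0.47 in the double mutant against Tet2-/- (adjusted p = 0.0124). The call held in all 13 alternatives and was lost in 3 of 6 fits with a library left out. Ect2, the exchange factor that Racgap1's protein recruits, lay the other way in the same contrast: 94.5 to 153 CPM in the double mutant and 155 to 261 CPM in Tet2-/-, without overlap (-0.59 ± 0.30, adjusted p = 0.143). Prc1, which crosslinks midzone microtubules, and Anln, a ring scaffold, gave 0.64 and 0.50 in the leukemic double mutant against the double mutant (adjusted p = 0.143 and 0.307).

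The 2 genes of the mitotic chromosome did not pass the test in any contrast. Mki67, the proliferation marker that coats chromosomes, had 309.5, 606 and 428 CPM in the leukemic double mutant, 335, 425 and 284 in the double mutant, 182, 244 and 363 in Tet2-/-, 499, 183 and 365 in Nras(G12D) and 269, 327 and 274 in WT. The groups overlapped in every comparison: the leukemic double mutant differed from the double mutant by 0.33 ± 0.35 (adjusted p = 0.514) and from WT by 0.58 ± 0.35 (adjusted p = 0.239), and the 3 Nras(G12D) libraries alone spanned 183 to 499 CPM. Top2a, which untangles sister DNA, was 566 to 1000.0 CPM in the leukemic double mutant, 488 to 725 in the double mutant, 599.5 to 1026 in Tet2-/-, 675 to 895 in Nras(G12D) and 684 to 789 in WT.

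In the 2 leukemic comparisons the values of several genes did not overlap between groups. Against the double mutant 12 of the 44 genes were higher in all 3 leukemic libraries and 0 lower, where 19.7% of tested genes were higher in this way and 23.4% lower. Against WT 15 were higher and 2 lower, where 24% of tested genes were higher and 23.1% lower. In Tet2-/- against WT 0 were higher and 8 lower (Nek2, Ccna2, Cenpa, Cdca8, Ube2c, Aspm, Foxm1 and Plk1), where 21.9% of tested genes were higher and 12.9% lower. In the double mutant against Tet2-/- 10 were higher and 1 lower, where 26% and 27.5% of tested genes were. In the double mutant against WT 1 was higher (Foxm1) and 2 lower (Nuf2 and Bub3), where 16.6% and 20.8% of tested genes were. Nras(G12D) against WT (5.52% and 6.53% of tested genes) and the double mutant against Nras(G12D) (6.74% and 6.87%) had 0 such members in either direction.

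The list did not move as 1 block in Tet2-/- libraries 1 and 3. Relative to the WT mean, 16 of the 44 genes lay at least 0.6 (log2) lower in both Tet2-/- libraries 1 and 3; the limit was set after the values were seen, and what follows is a description with no test. These 16 were between -3.24 and -1.52 in library 1 and between -2.82 and -0.64 in library 3, but had a median of -0.31 in library 2. The other 28 genes lay between -0.83 and 0.50 in library 1 and between -0.02 and 0.64 in library 3. In library 3 no gene thus lay between -0.64 and -0.02. The median of these 28 in library 2 was -0.08. All 11 genes called in the double mutant against Tet2-/- were among the 16, as the same Tet2-/- values enter both; the other 5 were Plk1, Espl1, Aurkb, Incenp and Kif11. Over all tested genes 24.7% met the same limit, and 57.8% of those were called higher in the double mutant against Tet2-/-.

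**Figure D4:**
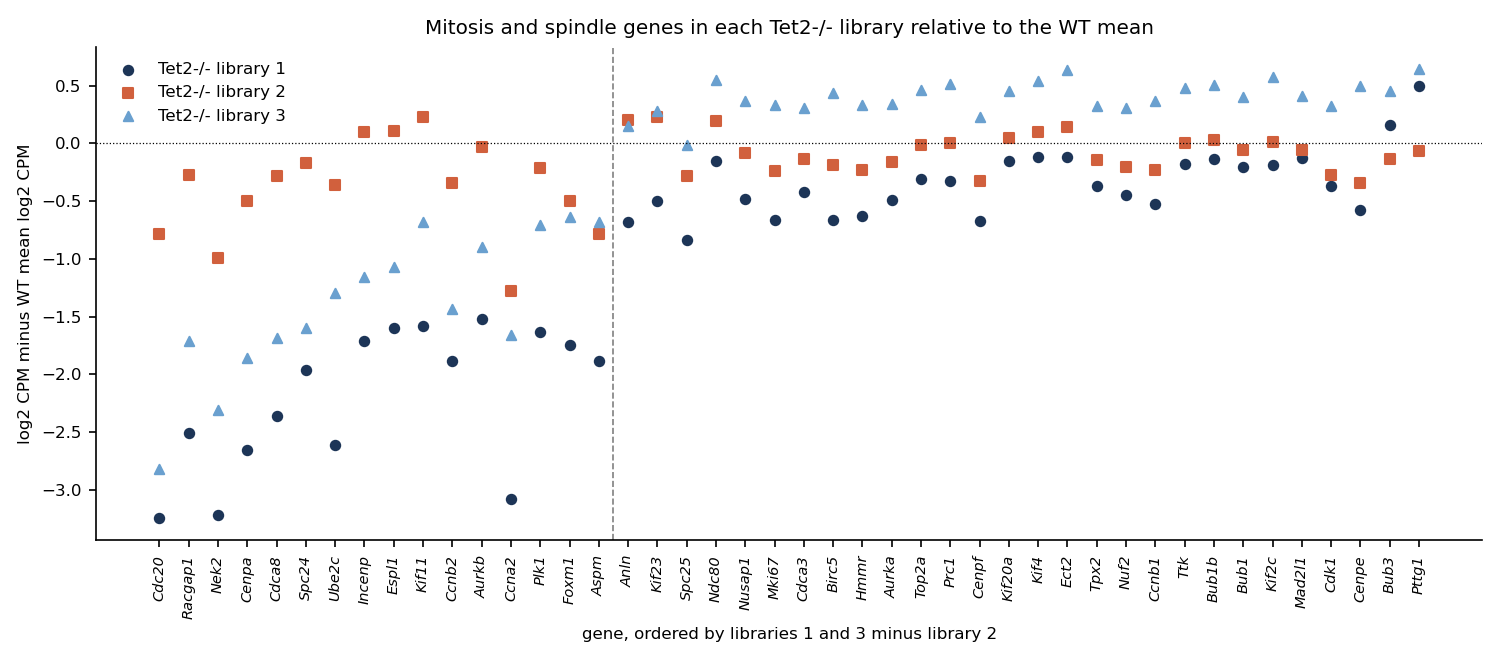
Log2 CPM of each of the 44 genes in the 3 Tet2-/- libraries minus the WT mean, ordered by libraries 1 and 3 minus library 2; the dashed line separates the 16 genes at least 0.6 lower in both libraries 1 and 3 (left) from the other 28. Left of the line library 3 lies between -2.82 and -0.64, right of it between -0.02 and 0.64.

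The 16 genes cut across roles and across complexes. They held 3 of 6 mitotic entry genes, 2 of 3 kinases, 3 of 4 anaphase onset genes, 3 of 4 passenger complex genes, 2 of 7 centromere and kinetochore genes, 1 each of the kinesins, spindle assembly and midzone genes, and 0 of 5 checkpoint genes. Partners thus fell on different sides of this limit, which rests on Tet2-/- libraries 1 and 3. Spc24 was apart from Ndc80, Nuf2 and Spc25, Racgap1 from Kif23, Ccnb2 from Ccnb1, and Aurkb, Incenp and Cdca8 from Birc5. In Tet2-/- library 2, Spc24 lay at -0.17 from the WT mean, beside 0.19, -0.20 and -0.28 for Ndc80, Nuf2 and Spc25. Aurkb, Incenp and Cdca8 lay at -0.03, 0.10 and -0.28 there, beside -0.19 for Birc5. Racgap1 lay at -0.27 beside 0.22 for Kif23, and Ccnb2 at -0.34 beside -0.23 for Ccnb1. Whether partners differ was not tested. The median deviation of the 16 from their 15-library means was 0.42, 1.19 and 0.77 in leukemic libraries 1 to 3, and 0.27, 0.25 and -0.11 in the double mutant. For the other 28 it was -0.21, 0.80 and 0.37 in the leukemic libraries and -0.01, -0.02 and -0.53 in the double mutant. Leukemic library 1 therefore stood above the non-leukemic libraries for the 16 genes and among them for the 28. The 16 were picked for low Tet2-/- libraries 1 and 3 (-1.91 and -1.26), which lowers their 15-library means and raises the other libraries. These deviations therefore cannot compare the 16 with the 28. The median leukemic difference from WT, which also set the limit, was 0.61 for the 16 and 0.35 for the 28. From the double mutant it was 0.73 and 0.53. Whether the 16 and the 28 differ was not tested. The reference transcripts of the 16 (GENCODE) had a median GC content of 51.5%, and those of the other 28 one of 44.7%; over all tested genes that met the limit the median was 52.8%, and over the rest 48.3%. With a GC and length trend removed from each library, 10 of the 11 genes were called in the double mutant against Tet2-/-, all but Ube2c. In that fit 2049 of 13604 tested genes rose and 2593 fell. These calls rest on the same Tet2-/- values that picked the 16, and the part of GC content was not tested.

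Over the 15 libraries the 44 genes varied together in part. Of their 946 pairs, 876 had a Pearson correlation of log2 CPM above 0 and 87 above 0.9, with a median of 0.53; these are descriptions, since all pairs share the same libraries and scaling. Aurka (0.97), Tpx2 (0.94) and Hmmr (0.93) followed the median of the other members most closely. Cenpf (0.26), Pttg1 (0.30) and Kif23 (0.30) followed it least. Ccnb2 and Cenpa were the closest pair (0.99), and Bub3 and Racgap1 the most opposed (-0.43).

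Genes next to these in the pathway were read from lists of gene names. Over all tested genes 9.04% rose and 15.2% fell in the leukemic double mutant against the double mutant. In the leukemic double mutant against WT 10.8% rose and 13.9% fell, and in the double mutant against Tet2-/- 20.1% rose and 8.57% fell. The genes named are the called ones of smallest adjusted p, so a named gene does not mark its list as changed. On the S phase list 14 of 25 genes rose and 0 fell in the leukemic double mutant against the double mutant (median 0.90), and 9 rose and 0 fell against WT (median 0.69). Rrm2, which makes deoxynucleotides, rose by 2.16 ± 0.45 against the double mutant (adjusted p = 0.00604; means 829.6 CPM in the leukemic double mutant and 168 CPM in the double mutant), its partner Rrm1 by 1.40 ± 0.32 and the replication fork gene Gins2 by 0.85 ± 0.20. Against WT, Chaf1a, a chromatin assembly factor, rose by 2.26 ± 0.51, Rrm2 by 1.84 ± 0.45 and Gins1 by 0.68 ± 0.20. In the double mutant against Tet2-/- the same list was divided, with 4 rises, among them Dut (2.70 ± 0.55), Cdt1 (2.55 ± 0.60) and Chaf1a (2.41 ± 0.51), and 4 falls (median -0.42).

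Of the 17 MuvB, B-MYB and E2F partner genes, 4 rose and 1 fell in the leukemic double mutant against the double mutant, 7 rose and 1 fell against WT, and 8 rose and 0 fell in the double mutant set against Tet2-/-. Of all tested genes 9.04%, 10.8% and 20.1% rose in these comparisons, and 15.2%, 13.9% and 8.57% fell. Mybl2, which encodes B-MYB, averaged 205 CPM in the leukemic double mutant, 54.5 in the double mutant, 10.9 in Tet2-/-, 36.3 in Nras(G12D) and 28.4 in WT. It rose by 2.91 ± 0.51 in the leukemic double mutant against WT (adjusted p = 0.00305), by 1.91 ± 0.51 against the double mutant (adjusted p = 0.0181) and by 2.41 ± 0.51 in the double mutant against Tet2-/- (adjusted p = 0.0061). E2f4, an E2F that acts mainly as a repressor, rose in the same 3 comparisons, by 2.49, 1.77 and 2.17. Lin54, the MuvB subunit that reads the CHR, rose by 1.49 ± 0.33 in the leukemic double mutant against WT, Nfyc by 1.30 ± 0.37 in the double mutant against Tet2-/-, and Nfya, the NF-Y subunit that contacts CCAAT, fell (-1.07 ± 0.32) in the leukemic double mutant against the double mutant.

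Of 15 APC/C genes 1 rose in the leukemic double mutant against the double mutant (Anapc16, 0.80 ± 0.24) and 2 against WT (Anapc16, 0.89, and the coactivator Fzr1, 2.0), while in the double mutant against Tet2-/- 3 rose, with Fzr1 at 3.1 ± 0.52 and Cdc16 at 2.28 ± 0.51, and 1 fell, Cdc27 (-0.81 ± 0.24). Of 11 genes of CDC25, WEE1 and Greatwall control, 4 rose and 2 fell in the double mutant set against Tet2-/-. The CDK1-inhibiting kinases Pkmyt1 (3.62 ± 0.64) and Wee1 (1.90 ± 0.49) were among the risers and Arpp19 (-0.73 ± 0.20), a phosphatase inhibitor, among the falls. In leukemia Bora, a cofactor of PLK1 activation, rose by 0.84 ± 0.25 against the double mutant and 0.96 ± 0.25 against WT, and Cdc25a, the phosphatase that activates CDKs, by 1.16 ± 0.37 against WT. These were 1 and 2 of the 11 genes. Beside both lists, 9.04% of all tested genes rose in the leukemic double mutant against the double mutant and 10.8% against WT. In the double mutant against Tet2-/- 20.1% of all tested genes rose and 8.57% fell.

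Of 23 genes of the inner centromere network and the KNL1 and MIS12 complexes, 6 rose in the leukemic double mutant against the double mutant (median 0.41), led by Pmf1 (0.74 ± 0.19), Cenpu (1.04 ± 0.27) and Zwint (0.72 ± 0.22). Against WT 1 rose (Casc5, the KNL1 gene, 0.93 ± 0.31), and in the double mutant against Tet2-/- 1 rose (Mis18a, which helps to load the centromeric histone, 0.93 ± 0.29). Of 15 genes of cohesin and its regulators 1 rose in the leukemic double mutant against the double mutant (Sgol1, a protector of centromeric cohesin, 0.89 ± 0.27) and 2 against WT (Wapl, which releases cohesin, 1.66 ± 0.39, and the loader Mau2, 1.30 ± 0.34). In the double mutant against Tet2-/- 4 rose, among them Mau2 (1.79), Sgol2a (1.76) and Wapl (1.37), and 3 fell. Of 8 condensin genes, whose products compact chromosomes, 0 passed in either leukemic comparison (medians 0.59 and 0.45), and in the double mutant against Tet2-/- Smc4 rose by 1.12 and Ncapd3 fell (-0.81). Of 21 other mitotic kinesins and spindle proteins 1 rose and 1 fell in each leukemic comparison. Gtse1 rose by 1.17 ± 0.36 against the double mutant and Tacc3 by 0.72 ± 0.24 against WT, while Fam64a fell in both (-1.47 and -1.34). In the double mutant against Tet2-/- Ckap5, a microtubule polymerase, fell (-0.92). None of these lists had a called gene in the other 4 contrasts. Over all tested genes 9.04% rose in the leukemic double mutant against the double mutant, 10.8% against WT and 20.1% in the double mutant against Tet2-/-. The shares that fell were 15.2%, 13.9% and 8.57%.

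Markers of other cells and of handling moved beside these results. The 13 erythroid genes summed to 1792 to 13540.0 CPM in the leukemic double mutant, 1181 to 1591 in the double mutant, 1531 to 2183 in Tet2-/-, 1154 to 2424 in Nras(G12D) and 1494 to 1650 in WT, with none of the 13 at 0 in any group. In the leukemic double mutant 12 of the 13 rose against the double mutant (median 4.12) and 10 against WT (median 2.94). Klf1 and Epor rose in the double mutant against Tet2-/-. Leukemic library 2 had the highest erythroid level, library 3 the next and library 1 the lowest of the 3, the same order as for the mitosis genes. The 8 stem cell genes summed to 255 to 649 CPM in the leukemic double mutant, 914 to 974 in the double mutant, 1069 to 2010.0 in Tet2-/-, 599 to 869 in Nras(G12D) and 1126 to 1341 in WT. In the leukemic double mutant 5 of the 8 fell and 1 rose against the double mutant, and 6 fell and 0 rose against WT. The 7 LSK surface genes summed to 937 to 3059 CPM in the leukemic double mutant, 2898 to 3653 in the double mutant, 4965 to 5708 in Tet2-/-, 2573 to 5644 in Nras(G12D) and 3489.7 to 3885 in WT. Kit, the gene of cKit, fell by 1.35 ± 0.41 on the log2 scale (adjusted p = 0.0282) in the leukemic double mutant against WT. It fell by 1.17 ± 0.41 on the log2 scale (adjusted p = 0.0445) in the double mutant against Tet2-/-. Cd34, a progenitor surface gene, fell by 1.78 ± 0.52 on the log2 scale (adjusted p = 0.0249) in the leukemic double mutant against the double mutant. It fell by 1.96 ± 0.52 on the log2 scale (adjusted p = 0.0158) in the leukemic double mutant against WT. None of the other 5 LSK surface genes was called in these comparisons. The part of these cell types in the mitosis results was not tested.

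The 12 immediate early genes, which rise when cells are stimulated or handled, summed to 527 to 2029 CPM in the leukemic double mutant, 2877 to 5017 in the double mutant, 623 to 762 in Tet2-/-, 473 to 698 in Nras(G12D) and 329 to 498 in WT. Of the 12, 10 rose in the double mutant set against Tet2-/- (median 4.10), 8 fell in the leukemic double mutant against the double mutant (median -2.06) and 6 rose in the leukemic double mutant against WT (median 1.85). They thus moved beside all 3 comparisons with mitosis calls, and 9 rose in the double mutant against WT. Their part was not tested. The 10 neutrophil granule genes had no call in any of these comparisons and were highest in Nras(G12D) library 2, at 7942 CPM in sum. The 10 B and T cell genes summed to 17.5 to 88.5 CPM over all libraries. Of the 6 tested, Cd4 and Cd79b fell in the leukemic double mutant against WT.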

How the data were processed

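The deposited table gives log2 CPM values, which the authors made with 0.5 added to each count and 1 to a scaled library size; this was read from the values, since 100% of them return whole counts within 1e-06 under that formula. The scaled size was 0.813 to 1.12 of the library's total count. Tools named per the submitters' processing notes are STAR 2.4.0f1, limma 3.28.21, edgeR 3.14.0 and bcl2fastq, and the builds mm10 and NCBIM37 have no stated role. The annotation, the counter and the use of strand were not found in the labels. Reads of overlapping or antisense genes may therefore have been counted for either gene.

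Each column was tied to its sample through the description label, with N2-3 taken as library 2 of Nras(G12D). The log2 values of all 15 libraries were fitted in 1 model with a mean per group in limma 3.58.1 (intensity trend, R 4.3.3), two-sided, with Benjamini-Hochberg adjustment over 13927 genes in each contrast and calls at adjusted p below 0.05. CPM values are the deposited ones with the added count taken off. Plots and summaries used Python 3.11.15, pandas 2.3.3 and matplotlib 3.10.9. The fit was tested on simulated data that gave every library the same spread. That test cannot show how outlying libraries affect the calls. The labels do not say what a replicate number marks; the deviations from the group means of same-numbered double mutant and Tet2-/- libraries correlated at 0.137, 0.106 and 0.122, so that comparison was read with and without the replicate number as a block. A gene at 0 counts is limited to 3 counts, 0.0775 to 0.127 CPM, covering counting error only.

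The members and lists were chosen with earlier results of these data known. Given in every library are Mki67, Ccnb1, Cdk1, Plk1, Aurkb, Bub1b, Cenpa and Foxm1, up to 8 called members of smallest adjusted p per comparison, and the 3 of smallest p where none is called; non-overlapping members (up to 4 per role), the 3 least correlated members and up to 3 called genes per pathway list are named. Alternatives changed the scaling, filter, added count, weights, libraries in the fit, replicate block, Y-linked covariate and GC and length trend, and left out each library.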

Additional observations from a re-analysis of the deposited data

How the results depend on the processing

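None of the 20 calls of the 44 genes changed direction under any alternative or left-out library. The other named genes were not followed through these fits. In the leukemic double mutant against the double mutant (5 members called) the count was 1 under quantile normalization, 1 under total-count scaling, 12 with median centring, 2 with no filter, 9 with GC and length correction, 27 with voom quality weights (3391 of all tested genes higher and 4509 lower) and 1 (Nek2) with only the compared groups in the fit. Over all genes 1065 of 33506 rose with no filter, 1997 of 13604 with GC and length correction and 342 of 13927 with only the compared groups. Against WT (4 called) the count was 2 under quantile normalization (1387 of all genes higher and 1802 lower), 2 under total-count scaling and 23 with voom (4208 of all genes higher and 4218 lower). Voom gave 17 in Tet2-/- against WT (16 lower; of all genes 3388 higher and 3550 lower), 2 in the double mutant against WT (2561 and 1099), 20 in the double mutant against Tet2-/- (17 higher; 4705 and 4097) and 15 for the interaction (3543 and 2374). Its weights ran from 0.225 in leukemic library 1 to 4.11 in leukemic library 3, with 0.282 in Tet2-/- library 2. Leaving out 1 library gave 1 to 16 calls in the leukemic double mutant against the double mutant, 1 to 12 against WT, 3 to 14 in the double mutant against Tet2-/-, 0 to 12 in Tet2-/- against WT (12 without Tet2-/- library 2), 0 to 10 for the interaction (10 without Tet2-/- library 2) and 0 to 0 in the other contrasts. With the replicate number as a block the count was 8 in Tet2-/- against WT, all lower (of all genes 93 higher and 620 lower), and 7 in the leukemic double mutant against WT. It changed no call of a member in the double mutant against Tet2-/-, and the other counts were 7 in the leukemic double mutant against the double mutant and 0 elsewhere. With the block 1738 of all genes rose and 1935 fell in the leukemic double mutant against WT, and 1400 and 2142 against the double mutant. In the double mutant against Tet2-/- 2869 rose and 990 fell. Of 30 same-numbered library pairs 12 had deviations correlated above 0.1 (range -0.346 to 0.294; mean 0.0601, against -0.0299 for other pairs). Apart from the double mutant with Tet2-/-, each pair of groups had at least 1 same-numbered pair below 0.1 (Tet2-/- with WT 0.242, 0.237 and -0.124). Differently numbered libraries reached 0.468 (Nras(G12D) library 3 with WT library 1). Pairing is therefore not established for any groups, the double mutant with Tet2-/- among them. Scaling also moved the split of all called genes: in the double mutant against Tet2-/- 2806 rose and 1193 fell, but 2327 and 2746 under quantile normalization and 2020 and 4039 with median centring. In the leukemic double mutant against the double mutant 1259 rose and 2123 fell, but 785 and 2919 under total-count scaling, 1204 and 1285 under quantile normalization and 1735 and 1488 with median centring. Against WT 1505 rose and 1938 fell, but 974 and 2789 under total-count scaling. The causes of these changes were not tested. Count models on the recovered counts (edgeR's quasi-likelihood test and DESeq2) were planned and not run.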
